A study of Mus musculus with 8 samples.

Results

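Domains of the histone variant H2A.X that were marked as higher in the control of both DNMT1 knockout (KO) and TKO mouse embryonic stem (ES) cells were followed through the other comparisons of the series. Members were the DNMT1 control domains on 16 autosomes (1 to 19 without 6, 8 and 11) that had 50% or more of their bases in TKO control domains. They numbered 487 of 2109 DNMT1 control domains on these chromosomes, or 23.1%, and are called shared domains. The other 1622 are called remaining domains. TKO control domains covered 22.9% of the span of these chromosomes, so the share of members was near that cover. The whole series holds 25499 domains in 6 lists, and the DNMT1 list alone has 2631 control domains over all chromosomes. Members were selected on the marks of the DNMT1 and TKO lists, so values of these 2 lists are given as a description. The marks of the other 4 lists were not used in the choice.

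H2A.X is a variant of histone H2A that is phosphorylated around DNA breaks, and the antibody used here is labelled as one to H2A.X itself, so the lists concern its placement and not its phosphorylation. DNMT1 copies DNA methylation to the new strand at replication. TDG is a DNA glycosylase that removes oxidised forms of methylcytosine. ES cells in 2i medium, which holds inhibitors of MEK and GSK3, are known to have less DNA methylation than cells in serum.

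Each list sets a pair of libraries against each other, and every condition had 1 library. The groups were DNMT1 KO cells in serum, with strain given as 129S6/C57B6, set against a DNMT1 control; TKO cells against their wild-type control, and Tdg KD (knockdown) cells against theirs, all in serum and of strain 129/Ola; wild-type 129S6/C57B6 cells in 2i against serum; and such cells in PKCi medium, which held 5 µM Gö6976, an inhibitor of protein kinase C, and in SRCi medium, which held 1.5 µM CGP77675, an inhibitor of Src kinase, and 3 µM CHIR99021, an inhibitor of GSK3, each against 2i. Serum medium held 15% fetal bovine serum. The labels do not spell out TKO, nor how DNMT1, TKO or TDG was lost, nor whether a line is a single clone. The serum and DNMT1 control libraries enter only through their lists, and whether they are the same library is not given. If they are, its noise is in both lists, and the serum and 2i list is then not independent of the choice of members.

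A domain belongs to the side its mark in the list names, and the order of the conditions in the list's name gives which library that is. The signed score is the authors' own, with no unit given, and rises toward the control in the DNMT1 and TKO lists. In the other lists it rises toward serum over 2i, toward 2i over PKCi or SRCi, and toward the TDG control. Its median on these chromosomes was -7.59 in serum, 4.99 in PKCi, 6.15 in SRCi and 0.28 in TDG KD domains. A domain called higher in a library is thus one with that mark, and its score can lean toward the other library. No change between conditions has a replicate check, depth is unknown, and regions of a single pair of libraries are not replicates, so no test was made. Wilson 95% intervals are given for shares of domains. They cover counting error only, and neighbouring domains are not independent, so they are too narrow for anything else. Regions are mm9 positions. Neither genes nor sequence at them are given, because no annotation of that build was used here.

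The shared domains covered 270 Mb, against 645 Mb in the remaining domains. Their median length was 336 kb, with quartiles of 142 kb and 729.5 kb and a range of 1 kb to 3701 kb. The remaining domains had a median of 223.5 kb and reached 5907 kb. The signed score in the DNMT1 list had a median of -2.66 in shared domains (range -3.76 to 9.62) and -2.57 in remaining domains (range -3.96 to 23.3), and 5 shared and 26 remaining domains scored above 0. For scale, the 1219 DNMT1 KO domains on the same chromosomes had a median score of -6.56. The highest KO domain score was -5.01, below the score of every control domain. Control domains are thus places where the score leaned less toward the knockout than in any KO domain.

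Among all DNMT1 control domains, 1191 had no base in a TKO control domain, 431 had some but under 50%, and 153 lay wholly inside TKO control domains. The median share in members was 80.8%. No gap in the distribution marked the chosen limit, with 81 members between 50% and 60% and 99 remaining domains between 40% and 50%. Just inside were chromosome 12, 109437001 to 109657000, at 50%, and chromosome 5, 131996001 to 132267000, at 50.2%. Just outside were chromosome 10, 22468001 to 23540000, at 49.7%, and chromosome 2, 114655001 to 115380000, at 49.7%.

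**Figure D1:**
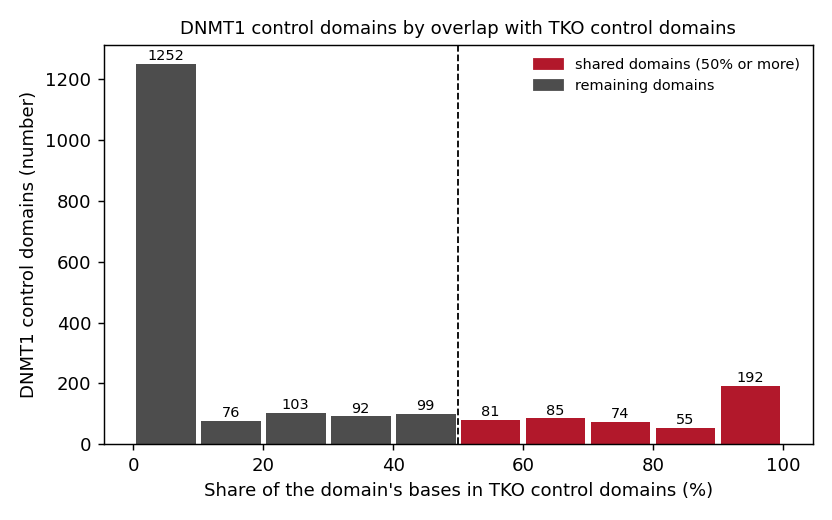
Number of DNMT1 control domains on the 16 autosomes (vertical axis) by the percentage of their bases in TKO control domains (horizontal axis, bins of 10 points, a share of exactly 100% in the last bin). The dashed line at 50% separates shared from remaining domains; 1252 domains lie under 10% and 192 at 90% or more.

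Seen from the TKO list, the 1554 TKO control domains on these chromosomes covered 462 Mb, of which 63.3% lay in DNMT1 control domains, 42.8% in shared domains and 1.14% in DNMT1 KO domains. DNMT1 control domains as a whole covered 45.5% of the span of the 16 autosomes, so a share of 63.3% compares with that figure. Of the shared domains, 366 met a single TKO control domain, 87 met 2 and 34 met 3 or more, with at most 6. In 311 shared domains (63.9%) the overlap also took in 50% or more of at least 1 TKO control domain. Edges seldom coincided. Starts within 10 kb of a TKO control start were found in 64 shared domains (13.1%), and ends in 67 (13.8%). Remaining domains, which the rule sets apart by their overlap with these same TKO control domains, had 18 such starts (1.11%) and 15 such ends (0.925%). Both edges were identical in 19 shared domains, none longer than 30 kb.

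Members were found on all 16 autosomes, but unevenly. Chromosome 1 had 80 of its 202 DNMT1 control domains among them (39.6%), and chromosome 15 had 28 of 95 (29.5%). The lowest share was on chromosome 2, with 30 of 182 (16.5%). Chromosome 1 also had the highest coverage by TKO control domains, at 37.3% of its span, against 16.9% to 28.3% on the other 15 chromosomes used. Coverage by DNMT1 control domains set it apart less, at 47.5% within an overall range of 36.3% to 51.4%. In 4 equal parts of the chromosome, from start to end, members made up 19.2%, 23.6%, 27.5% and 21.7% of DNMT1 control domains.

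A shared domain was followed by another shared domain more often than a remaining domain was. The next DNMT1 control domain along the chromosome was also shared in 160 of 480 cases after a shared domain (33.3%, interval 29.3% to 37.7%) and in 325 of 1613 cases after a remaining domain (20.1%, interval 18.3% to 22.2%). In 72 of these 160 neighbouring pairs (45.0%) both domains met the same TKO control domain. A total of 223 members (45.8%) stood in 93 runs with no other DNMT1 domain between them. Members made up 23.1% of all DNMT1 control domains, and how many would stand in runs at that share alone was not computed. The longest run held 4 domains on chromosome 1, 27093001 to 33018000, over 5.92 Mb, of which serum domains covered 1.40% and TDG KD domains none. The next was on chromosome 19, 47844001 to 53103000, over 5.26 Mb, with 8.33% in serum and 21.2% in TDG KD domains. The third lay on chromosome 1, 67233001 to 72081000, over 4.85 Mb, with 7.34% and 3.05%.

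In the media comparisons nearly all shared domains lay in PKCi and SRCi domains. Of the 487, 465 had 50% or more of their bases in domains higher in PKCi than in 2i (95.5%, interval 93.3% to 97.0%), and 1575 of 1622 remaining domains did (97.1%, interval 96.2% to 97.8%). The background over all DNMT1 control domains was 96.7%. For SRCi the counts were 466 shared domains (95.7%, interval 93.5% to 97.2%) and 1572 remaining domains (96.9%, interval 96.0% to 97.7%), with a background of 96.6%. The differences were -1.62 percentage points (95% interval -3.96 to 0.16) and -1.23 (interval -3.54 to 0.53). With members at 75% or more they were -3.52 (interval -7.03 to -1.08) and -3.82 (interval -7.39 to -1.30), so whether the interval reaches 0 depends on the limit chosen. PKCi domains cover 84.4% of the span of these chromosomes and SRCi domains 86.1%, so such shares say little about the members. Both sides together held 458 shared domains (94.0%) and 1555 remaining domains (95.9%), with a background of 95.4%. Both lists use a 2i library. Domains higher in 2i held 2 shared domains in the PKCi list (background 0.332%) and 3 in the SRCi list (background 0.474%).

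The larger differences lay in the serum and 2i list, which may share the DNMT1 control library, and in the TDG list. Of the shared domains, 168 (34.5%, interval 30.4% to 38.8%) had 50% or more of their bases in domains higher in serum than in 2i, against 930 of the remaining domains (57.3%, interval 54.9% to 59.7%). The background was 52.1%, and the difference was -22.8 percentage points (interval -27.6 to -17.9). Serum domains held no base of 201 shared domains (41.3%) and of 469 remaining domains (28.9%). They covered 61 shared domains (12.5%) and 450 remaining domains (27.7%) wholly. In covered bases the gap was smaller, at 32.9% in shared domains and 45.5% in remaining domains, a difference of -12.6 points. Domains higher in 2i than in serum held 9 shared and 15 remaining domains (1.85% and 0.925%, background 1.14%). At least 1 base in such 2i domains was found for 158 shared domains (32.4%) and 373 remaining domains (23.0%), while 1.03% and 1.13% of all their bases lay there. In bases, 66.8% of the parts shared with TKO control lay in no domain of that list. The value was 64.1% for the other bases of shared domains, 66.3% for TKO control bases of remaining domains and 62.2% for the whole span. Remaining domains with no TKO control base stood apart, at 40.7%.

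The TDG list gave a similar picture. Domains higher in TDG KD than in its control held 129 shared domains (26.5%, interval 22.8% to 30.6%) and 805 remaining domains (49.6%, interval 47.2% to 52.1%). The background was 44.3%, and the difference was -23.1 points (interval -27.6 to -18.4). TDG KD domains covered 25.3% of the bases of shared domains and 41.8% of those of remaining domains. No base lay in them for 309 shared domains (63.5%) and 756 remaining domains (46.6%). The TDG control side held 2 shared and 3 remaining domains (background 0.237%). The control libraries of the TDG and TKO lists are both labelled as wild-type cells of strain 129/Ola in serum and are separate samples.

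Serum and TDG KD domains overlapped in the members they held, but less so than over all DNMT1 control domains. Both held 107 shared domains (22.0%) and 746 remaining domains (46.0%), with a background of 40.4%. Neither held 297 shared domains (61.0%, interval 56.6% to 65.2%) and 633 remaining domains (39.0%, interval 36.7% to 41.4%), with a background of 44.1%. Serum alone held 61 shared domains (12.5%) and 184 remaining domains (11.3%, background 11.6%). TDG KD alone held 22 (4.52%) and 59 (3.64%, background 3.84%). Of the members in serum domains, 63.7% were also in TDG KD domains, and of the remaining domains in serum domains 80.2% were (background 77.7%). In the other direction, 82.9% of the members in TDG KD domains were also in serum domains, against 92.7% of the remaining domains (background 91.3%). The largest class of members, 274 or 56.3%, lay in PKCi and SRCi domains and in neither serum nor TDG KD domains, against 582 remaining domains (35.9%, background 40.6%).

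The contrast did not begin at the 50% limit. Among remaining domains with some bases in TKO control, 40.1% lay in serum domains (interval 35.6% to 44.8%) and 34.3% in TDG KD domains (interval 30.0% to 38.9%), closer to the shared domains than to those with none. The 1191 remaining domains with no TKO control base gave 63.6% (interval 60.8% to 66.2%) and 55.2% (interval 52.3% to 58.0%). From a share above 0 up to 100%, serum went in order through 41.6%, 39.0%, 38.1%, 32.6% and 31.4%, and TDG KD through 36.8%, 32.5%, 27.2%, 28.0% and 24.2%, with overlapping intervals between neighbouring classes. PKCi and SRCi stayed at 97.6% or more in the classes between a share of 0 and 100%, and were at 90.2% and 88.2% in the domains wholly inside TKO control. That drop is one of counts. In bases, PKCi and SRCi covered 94.9% and 93.6% of this class, against 92.9% and 94.7% of the class from 75% to 100%.

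**Figure D2:**
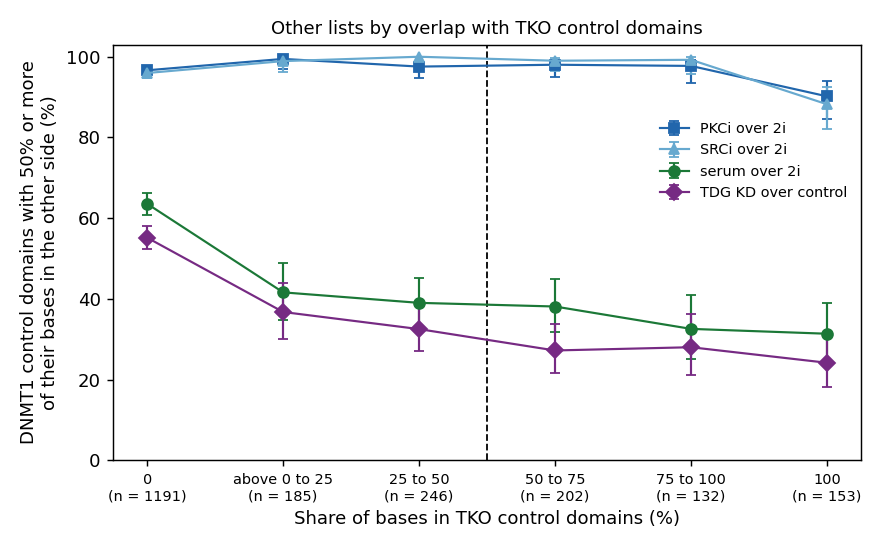
Percentage of DNMT1 control domains with 50% or more of their bases in PKCi, SRCi, serum and TDG KD domains (vertical axis), by their share of bases in TKO control domains (horizontal axis, number of domains in brackets; bars are Wilson 95% intervals). Domains right of the dashed line are the shared ones; serum and TDG KD stand highest, at 63.6% and 55.2%, where the share is 0.

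Length differs between these classes, with medians of 336 kb in shared domains, 599 kb in remaining domains with some TKO control bases and 169 kb in those with none. The shares were therefore also taken within classes of length. Shared domains were lower than remaining domains in all 6 classes for serum, with differences of -34.9 to -10.1 points, and in all 6 for TDG KD, with differences of -32.3 to -2.36 points. The -34.9 is that of the class up to 50 kb, with 2 of 23 shared and 41 of 94 remaining domains. Lengths within that class are unlike, as 13 of the 23 and 21 of the 94 were 1 kb long. Between 100 kb and 200 kb, 37.8% of 90 shared domains lay in serum domains, against 66.7% of 417 remaining domains, and 27.8% against 54.9% lay in TDG KD domains. Between 400 kb and 800 kb the values for serum were 38.2% of 110 shared domains, 37.2% of 129 remaining domains with some TKO control bases and 58.7% of 138 with none. In every other class shared domains were below remaining domains with some, which number only 1 up to 50 kb and 6 from 50 kb to 100 kb. The values were 37.8% against 46.5% from 100 kb to 200 kb, 40.6% against 47.3% from 200 kb to 400 kb, and 23.4% against 35.4% over 800 kb. Over 800 kb, where shared domains were most frequent (35.0% of 317), serum held 23.4% of shared and 37.4% of remaining domains, and TDG KD 17.1% and 35.9%.

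**Figure D3:**
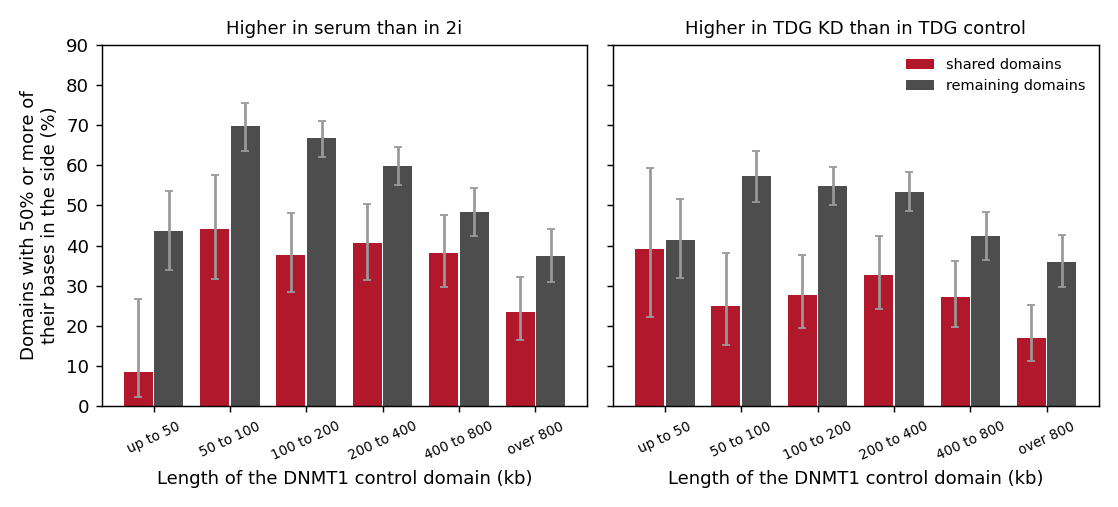
Percentage of shared (left bar, red) and remaining (right bar, dark) domains with 50% or more of their bases in serum domains (left panel) or TDG KD domains (right panel), by length of the DNMT1 control domain in kb; thin lines are Wilson 95% intervals. The red bar is the lower in all 6 length classes of both panels, with a difference of only -2.36 points in the shortest class for TDG KD.

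By chromosome, shared domains were lower than remaining domains on 14 of 16 for serum, with chromosomes 3 and 13 the exceptions, and on 15 of 16 for TDG KD, where chromosome 3 again went the other way. On chromosome 2 the serum shares were 26.7% of 30 shared domains and 67.1% of 152 remaining domains. On chromosome 19 the TDG KD shares were 18.8% of 16 shared domains and 68.6% of 51 remaining domains. Chromosome 3 gave 44.8% of 29 shared domains and 41.5% of 130 remaining domains for serum, and 37.9% and 30.8% for TDG KD. Numbers per chromosome are small, at 16 to 80 shared domains. Chromosome 1, with the most members, gave 33.8% and 57.4% for serum and 22.5% and 45.9% for TDG KD.

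**Figure D4:**
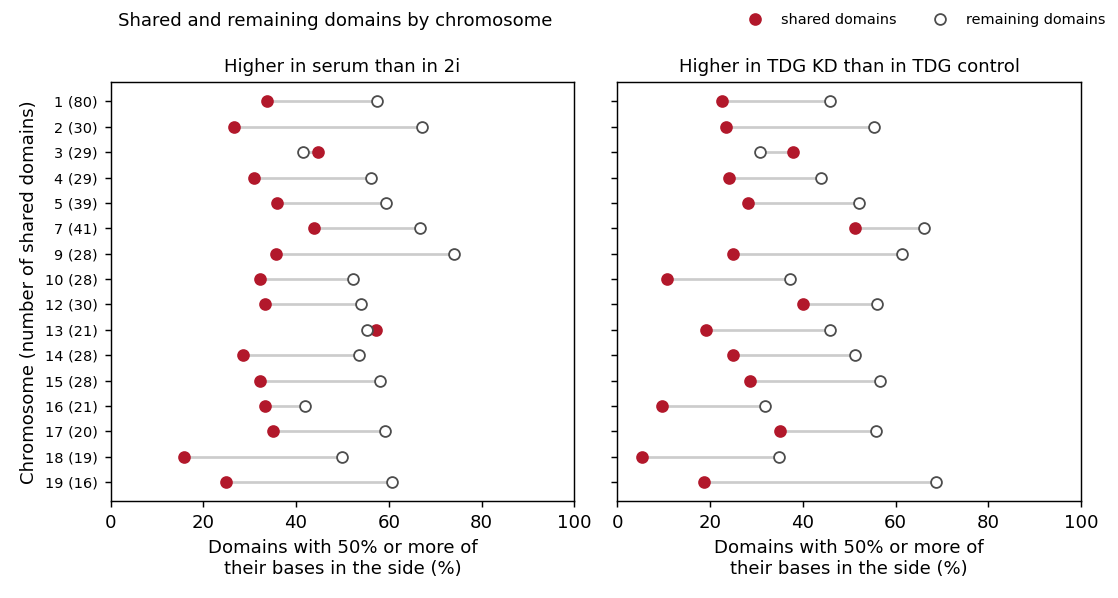
Percentage of domains with 50% or more of their bases in serum domains (left) or TDG KD domains (right) on each of the 16 autosomes, with the number of shared domains in brackets. Filled red points are shared domains and open points remaining domains; red lies to the left except on chromosomes 3 and 13 for serum and on chromosome 3 for TDG KD.

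Position along the chromosome moved the level in both sets. In the last of the 4 parts, 54.0% of shared and 70.9% of remaining domains lay in serum domains, and 46.8% and 66.1% in TDG KD domains. In the first part the values were 23.9% and 50.6% for serum, and 17.4% and 36.2% for TDG KD. Shared domains were lower in each of the 4 parts.

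Base by base, the cover of shared domains was that of the chromosomes as a whole for serum and somewhat below it for TDG KD. Serum domains covered 32.9% of the bases in shared domains, 58.2% in remaining domains with no TKO control base and 32.9% of the span of the 16 autosomes. TDG KD domains covered 25.3%, 53.7% and 28.7% of the same. Within shared domains, the 198 Mb inside TKO control domains and the other 72.6 Mb had nearly the same cover, at 32.2% and 34.9% by serum and 24.6% and 27.3% by TDG KD. The 334 shared domains that held both kinds of base were split evenly for serum, with the part inside TKO control less covered in 95, more covered in 93 and equal in 146. For TDG KD these counts were 37, 39 and 258. The 431 remaining domains with both kinds of base were less even, at 126, 98 and 207 for serum and 52, 28 and 351 for TDG KD. TKO control bases outside DNMT1 control domains, 169 Mb, had lower cover, at 19.04% by serum and 12.8% by TDG KD.

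**Figure D5:**
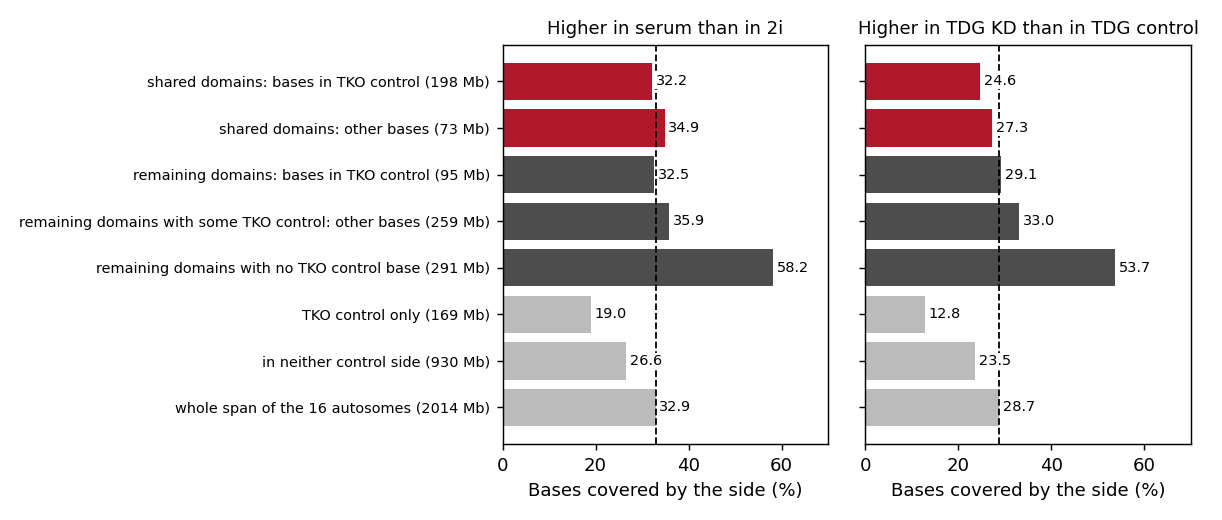
Percentage of bases covered by serum domains (left) or TDG KD domains (right) in parts of the 16 autosomes, with the size of each part in Mb. Red bars are shared domains, dark bars remaining domains and grey bars other parts; the dashed line is the whole span, at 32.9% and 28.7%, and the bar that stands well above it is that of remaining domains with no TKO control base, at 58.2% and 53.7%.

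The 50 kb on either side of the domains kept the difference. Serum domains covered 21.8% of the flanks of shared domains and 32.9% of those of remaining domains, and TDG KD domains 23.4% and 42.1%. PKCi domains covered 83.1% and 81.6%. TKO control domains, on which the rule rests, covered 51.9% and 10.1%, so the flanks are not free of the choice of members. The nearest domain higher in 2i than in serum lay a median of 56 kb from shared domains and 74 kb from remaining domains. DNMT1 KO domains, which come from the list that chose the members, covered 1.52% of the flanks of shared domains and 3.61% of those of remaining domains, and the nearest lay a median of 711 kb and 503 kb away.

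Where members did lie in a domain of another list, the score there was read as a description. Serum domains over shared domains had a median score of -7.90 (range -9.01 to -4.72), and over remaining domains -7.43 (range -9.00 to -0.06). This score falls toward 2i, so the serum domains at members lay further toward 2i. TDG KD domains had median scores of 0.36 at shared domains and 0.21 at remaining domains, where a higher score leans toward the TDG control. PKCi domains scored 5.17 and 4.88, and SRCi domains 6.24 and 5.91, in both cases further toward 2i at shared domains.

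The longest members show the range. The longest, chromosome 9, 26993001 to 30694000, at 3.70 Mb, had 60.7% of its bases in TKO control, 94.5% in PKCi, 93.7% in SRCi, 33.6% in serum and 18.97% in TDG KD domains. It is also the longest member that lies in neither serum nor TDG KD domains by the 50% limit. Chromosome 1, 67463001 to 70980000, at 3.52 Mb, had 68.7% in TKO control but 3.18% in serum and none in TDG KD domains, and chromosome 2, 7075001 to 9836000, at 2.76 Mb, had 57.4%, 8.84% and none. Chromosome 16, 5341001 to 8533000, at 3.19 Mb, had 74.8% in TKO control, 64.9% in serum and 22.6% in TDG KD domains. On chromosome 9 a second long member, 115340001 to 117926000, at 2.59 Mb, had 71.0% in TKO control, 86.0% in serum and 80.5% in TDG KD domains, and lay wholly in PKCi and SRCi domains. It is the longest member held by all 4 sides. Long members thus range from nearly clear of serum and TDG KD domains to nearly filled by them.

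The members with extreme scores in the DNMT1 list were short at the upper end. The 5 highest were 1 kb to 19 kb long and wholly inside TKO control. They were led by chromosome 19, 9458001 to 9459000, with a score of 9.62, and chromosome 7, 38964001 to 38983000, with 7.11. The domain on chromosome 7 lay wholly in 2i domains of all 3 lists that name 2i and in a TDG KD domain. The lowest, chromosome 2, 151124001 to 151126000, at -3.76, was the longest of the 2 members in TDG control domains. The 5 lowest also held 3 domains of 402 kb to 702 kb. Of the 9 members in 2i domains over serum, all were wholly inside TKO control, and their median length was 1 kb. The longest of these was chromosome 18, 90172001 to 90313000, at 141 kb, with 53.9% of its bases in 2i domains. Members up to 50 kb numbered 23, and 12 of them lay in PKCi and 11 in SRCi domains, against 75 and 71 of 94 remaining domains of that length. These sets are not alike in length, as 13 of the 23 and 21 of the 94 were 1 kb long. Among members over 50 kb the share in PKCi domains was 93.3% or more in every length class.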

How the data were processed

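H2A.X was profiled by native chromatin immunoprecipitation after micrococcal nuclease digestion, with 0.5 µg of antibody, per the labels' protocols. The submitters' processing notes name Bowtie2 2.0.6 and mm9. No label or header states the domain caller, its settings, any scaling or the depth. The authors deposited 6 lists of domains on a grid of 1 kb, each with a mark for the enriched library and 2 columns of scores with no stated unit. Scores were used only to describe or rank domains within a list. No filter was applied beyond the choice of chromosomes, and coordinates are counted from 1.

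Overlaps were computed as shares of a domain's bases with Python 3.11.15 (numpy 2.4.6, pandas 2.3.3), and the interval code was tested on simulated data against base-by-base counting. A domain lies in a side where 50% or more of its bases do. Intervals of shares are Wilson's (scipy 1.17.1), and those of differences combine them by Newcombe's method, at 95%. The span of a chromosome runs from the first to the last domain of the DNMT1 list. No test was made. Named regions are the 5 longest members, the 5 with the highest and the 5 with the lowest score (the extremes of each 5 are printed), the 2 on either side of the 50% limit, the longest of set overlap classes and the 3 longest runs. The members, lists and alternatives were chosen with earlier results of these data known. Alternatives were another limit, bases for counts, the highest scores, near-0 blocks, all autosomes, set lengths and merging. Leaving out chromosome 1 was added after seeing the data.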

Additional observations from a re-analysis of the deposited data

Results flagged for a closer look

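The chromosomes left out of the rule, which no comparison above uses, also carried DNMT1 control domains with 50% or more of their bases in TKO control domains. On chromosome 11 these were 146 of 148 (98.6%, Wilson 95% interval 95.2% to 99.6%), on X 64 of 79 (81.0%, interval 71.0% to 88.1%), on chromosome 6 73 of 150 (48.7%, interval 40.8% to 56.6%) and on chromosome 8 45 of 134 (33.6%, interval 26.1% to 41.9%), beside 23.1% on the 16 autosomes used. TKO control domains covered 97.1% of the span of chromosome 11, 87.0% of X, 48.0% of chromosome 6 and 37.1% of chromosome 8, and 22.9% of the 16 autosomes, so each share of domains was near the cover of its chromosomes by TKO control domains. No test was made. On chromosomes 6 and 8 none of these 73 and 45 domains lay in serum, PKCi or SRCi domains, and none of the other DNMT1 control domains there did. TDG KD domains held 53.4% of the 73 on chromosome 6 and 54.5% of the other 77, a difference near 0, and 40% of the 45 on chromosome 8 and 60.7% of the other 89. On X the order was the opposite of that on the 16 autosomes, with 79.7% of the 64 and 60% of the other 15 in TDG KD domains, and 100% and 93.3% in serum domains. On chromosome 11, 73.3% of the 146 lay in TDG KD domains and 77.4% in serum domains, and both of the other 2 domains there lay in each.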

How the results depend on the processing

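All 4 differences between shared and remaining domains kept their sign under every alternative run, and 53 of 79 alternative values stayed within the 95% interval of the main value (within 1.5 times, for the number of members). The number of members, 487, became 285 at a limit of 75%, 52 with the highest-scoring domains of both lists, 751 on all 19 autosomes and 235 for lengths of 100 kb to 500 kb. Where 75% of bases was asked for lying in a side, shares of members were 24.2% for serum, 91.2% for PKCi and 91.4% for SRCi. With the highest scores, which leave 52 members, they were 44.2% for serum, 84.6% for PKCi, 88.5% for SRCi and 36.5% for TDG KD, with differences of -11.6 points for PKCi (interval -23.8 to -4.09) and -6.95 for SRCi (interval -18.4 to -0.63). On all 19 autosomes they were 81.2% for PKCi, 81.5% for SRCi and 39.0% for TDG KD, and the differences were -14.7 points for serum, -6.88 for PKCi (interval -10.1 to -3.81), -6.44 for SRCi (interval -9.71 to -3.38) and -11.4 for TDG KD. This setting adds chromosomes 6 and 8, where no DNMT1 control domain lay in serum, PKCi or SRCi domains. There 48.7% and 33.6% of DNMT1 control domains met the rule, against 23.1% on the 16 autosomes, so these differences include that make-up. Between 100 kb and 500 kb, 39.1% of members lay in serum and 97.0% in PKCi domains. Members at 75% or more gave 93.3% and a difference of -3.82 points (interval -7.39 to -1.30) for SRCi, and -3.52 points (interval -7.03 to -1.08) for PKCi. Asking for 75% of bases gave -2.85 points (interval -5.89 to -0.31) for PKCi and -2.52 (interval -5.54 to 0.004) for SRCi. The main intervals of both reach past 0. In covered bases the differences were -12.6 points for serum and -16.5 for TDG KD. The cause was not tested beyond what each setting's own make-up shows. No domain lay in blocks with scores near 0, so leaving these out could only repeat the main values. Those repeats are counted among the 53 and add nothing to them. Merging or leaving out chromosome 1 moved no value outside its interval. No paired analysis was possible because the labels give 1 library for every condition. What depth limits could not be measured, as the lists do not give it.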
